A study of Mus musculus with 11 samples.

Results

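Transcripts of 5 genes that carry a signal from a receptor tyrosine kinase through Ras to ERK (GRB2, SHC1, HRAS1, MAP2K1 and MAPK3) were measured in corneas of mice under desiccating stress. They were picked by gene symbol from the 248 genes of the NanoString mouse Inflammation panel, and all 5 were present in both deposited tables. No rule on their measured values was used, but earlier results of these data were known. Other genes of the cascade are not reported here. All animals were labelled female C57BL/6 mice with no genetic change. All were kept for 5 days in dry, moving air with scopolamine, which blocks tear secretion, in the drinking water, and received eye drops 2 times a day. The drops held vehicle (3 samples), the pan-Trk agonist pan at 10 µM (4 samples) or the TrkC agonist C1 at 10 µM (4 samples), and no unstressed group was among the samples. The labels give an age of 3 months to all 11 samples, but a second age label sets pan replicate 4 and every C1 sample (22 to 24 months) apart from the other samples (2 to 3 months). The same 3 vehicle samples served as controls for both agonists.

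Trk receptors are the receptor tyrosine kinases of the neurotrophins. When a ligand binds, the receptor phosphorylates itself and docks SHC1 and GRB2, which bring an exchange factor to Ras at the membrane. Ras loaded with GTP starts a relay of kinases in which MEK phosphorylates ERK, and ERK then acts on other kinases and on transcription factors. In corneal epithelium this cascade is known for its part in proliferation, migration and wound closure. It is switched by phosphorylation and by GTP loading, neither of which was measured here. The values below are transcript levels alone.

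For the genes with a usable start site, the 200 bases before it are shown (RefSeq, GRCm38.p6). SHC1 and HRAS1 were low in the same pan samples where MAP2K1 was near the vehicle level or less far below it. Whether the sequences bear on this difference was not tested. Capitals mark matches on either strand. The GC box was searched as GGGCGG. The box named for its letters was searched as CCAAT. The CRE half-site, where CREB family factors are known to bind, was searched as TGACGT. No base lay in more than 1 motif.
SHC1, chr3:89418351-89418550, plus strand: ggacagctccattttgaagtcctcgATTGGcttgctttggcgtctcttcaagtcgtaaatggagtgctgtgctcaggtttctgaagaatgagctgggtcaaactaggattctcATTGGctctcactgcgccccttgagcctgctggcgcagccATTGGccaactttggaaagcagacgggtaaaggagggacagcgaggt
HRAS1, chr7:141194005-141194204, minus strand: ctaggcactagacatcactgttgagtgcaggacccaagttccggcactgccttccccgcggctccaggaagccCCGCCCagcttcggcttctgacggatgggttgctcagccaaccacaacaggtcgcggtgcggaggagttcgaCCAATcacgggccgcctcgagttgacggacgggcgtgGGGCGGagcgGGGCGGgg
MAP2K1, chr9:64253606-64253805, minus strand: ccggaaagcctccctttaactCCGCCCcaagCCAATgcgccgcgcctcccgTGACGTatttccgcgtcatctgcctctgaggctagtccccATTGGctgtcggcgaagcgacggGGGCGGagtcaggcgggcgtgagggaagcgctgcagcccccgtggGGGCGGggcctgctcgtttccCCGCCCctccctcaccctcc
The window of MAP2K1 held 4 GC boxes, 2 CCAAT boxes and 1 CRE half-site at 70% GC, and that of HRAS1 held 3 GC boxes and 1 CCAAT box at 67% GC. The window of SHC1 held 3 CCAAT boxes, all on the minus strand, and no GC box at 53% GC, which equals the median of all mouse windows of this length. Of 32851 such windows, 31.05% held a GC box, 29.35% a CCAAT box and 5.854% a CRE half-site. Neither an AP-1 site (TGACTCA, in 3.659% of windows) nor an ETS site (CCGGAAGT, in 2.676%) occurred in the 3 windows. These matches describe the letters and say nothing of what binds there. The HRAS1 start used lies 15 bases inside the edge of the annotated gene. Both windows listed for GRB2 lay inside the gene and were not used, nor was another SHC1 window that did so, and MAPK3 is named only.

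Each value is a normalized count, which is a gene's probe count scaled by the housekeeping genes of its sample. Total probe counts over the panel ranged from 64156 to 646446, a 10.1-fold range. They were lowest in pan replicates 1 and 3, and every C1 total was above every vehicle total. The 5 genes were well detected at all depths: the lowest probe count among them was 47, for HRAS1 in pan replicate 1. Probes differ in efficiency, so levels were compared between samples of 1 gene and never between genes. The corneal epithelium could not be checked against its markers, since 0 of 5 keratin, Pax6 and cadherin markers are on the panel. The macrophage list (7 of 7 genes on the panel) summed to 186 to 293 normalized counts with vehicle, 144 to 209 with pan and 243 to 330 with C1. The T cell list (3 of 3) summed to 19.7 to 26.0, 13.0 to 17.4 and 20.6 to 30.7, but 2 or 3 of its genes had at most 3 counts in each vehicle sample and in pan replicates 1 to 3. Its genes did not go one way with pan: CD4 differed by -1.68 on the log2 scale (adjusted p = 0.0912 in limma) and CD40LG by 1.14 (adjusted p = 0.239). TREM2 had only 1 or 2 counts in each vehicle sample, and 0 genes of either list passed an adjusted p of 0.05 in limma (lmFit and eBayes, over 248 genes) in any comparison. In bulk lysates fewer cells of a type and less RNA per cell cannot be told apart.

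GRB2 (gene ID 14784), the adaptor that holds the Ras exchange factor, had 833, 705 and 676 normalized counts in vehicle replicates 1 to 3. In pan replicates 1 to 4 it had 461, 859, 556 and 740 normalized counts. Pan replicates 1 and 3 were below every vehicle sample, whereas replicate 2 was above them all. In C1 replicates 1 to 4 GRB2 had 636, 745, 782 and 929 normalized counts, with 1 sample below the vehicle samples and 1 above. Group means were 738 ± 83.4 (SD, n = 3), 654 ± 179 (SD, n = 4) and 773 ± 121 (SD, n = 4) with vehicle, pan and C1, so the groups overlapped in full.

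SHC1 (gene ID 20416), the adaptor that is phosphorylated by the receptor and then docks GRB2, had 925, 848 and 857 normalized counts in the vehicle samples. It had 513, 988, 623 and 968 normalized counts in pan replicates 1 to 4. The pan samples thus fell into a low pair (replicates 1 and 3) and a high pair on either side of the narrow vehicle range. With C1 the counts were 849, 900, 1004 and 1062. Replicates 3 and 4 were above the vehicle samples and the others within their range. The means were 877 ± 42.0 (SD, n = 3), 773 ± 241 (SD, n = 4) and 954 ± 97.1 (SD, n = 4) in the same order of groups.

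HRAS1 (gene ID 15461, Hras in RefSeq), the GTPase at the membrane, had 238, 219 and 215 normalized counts in the vehicle samples. Pan replicates 1 to 4 had 153, 227, 148 and 202 normalized counts, so that 3 of 4 lay below the vehicle range. C1 replicates 1 to 4 had 187, 194, 212 and 210. All 4 C1 samples were below all 3 vehicle samples, although the highest C1 sample (212) and the lowest vehicle sample (215) were close together. The means were 224 ± 12.3 (SD, n = 3), 182 ± 38.6 (SD, n = 4) and 201 ± 12.1 (SD, n = 4) with vehicle, pan and C1.

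MAP2K1 (gene ID 26395), which encodes the ERK kinase MEK1, had 4074, 3766 and 3743 normalized counts with vehicle. The pan samples had 3256, 4173, 4045 and 3652. Only pan replicate 1 stood clearly below the vehicle samples. The C1 samples had 3871, 3990, 3652 and 3712, spread over the vehicle range and just under it. MAP2K1 had the smallest SD of the 5 genes on the log2 scale in each group. Its means were 3861 ± 185 (SD, n = 3), 3781 ± 415 (SD, n = 4) and 3807 ± 153 (SD, n = 4) with vehicle, pan and C1. The SD of its log2 values was 0.07, 0.16 and 0.06 in the 3 groups, where the median of 131 well-detected genes (mean log2 value of at least 5) was 0.14, 0.34 and 0.19. Of those genes, 16, 8 and 4 had a smaller SD.

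MAPK3 (gene ID 26417), which encodes ERK1, the last kinase of the relay, had 3415, 3476 and 3123 normalized counts with vehicle. In pan replicates 1 to 4 it had 1762, 2999, 1973 and 3125. Replicates 1 and 3 were again far below the vehicle samples, replicate 2 was just below them, and replicate 4 was at the lowest vehicle value. With C1 it had 2801, 2960, 3151 and 3175 normalized counts, of which 2 were below the vehicle range and 2 within it. The means were 3338 ± 189 (SD, n = 3), 2465 ± 697 (SD, n = 4) and 3022 ± 176 (SD, n = 4) with vehicle, pan and C1.

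**Figure D1:**
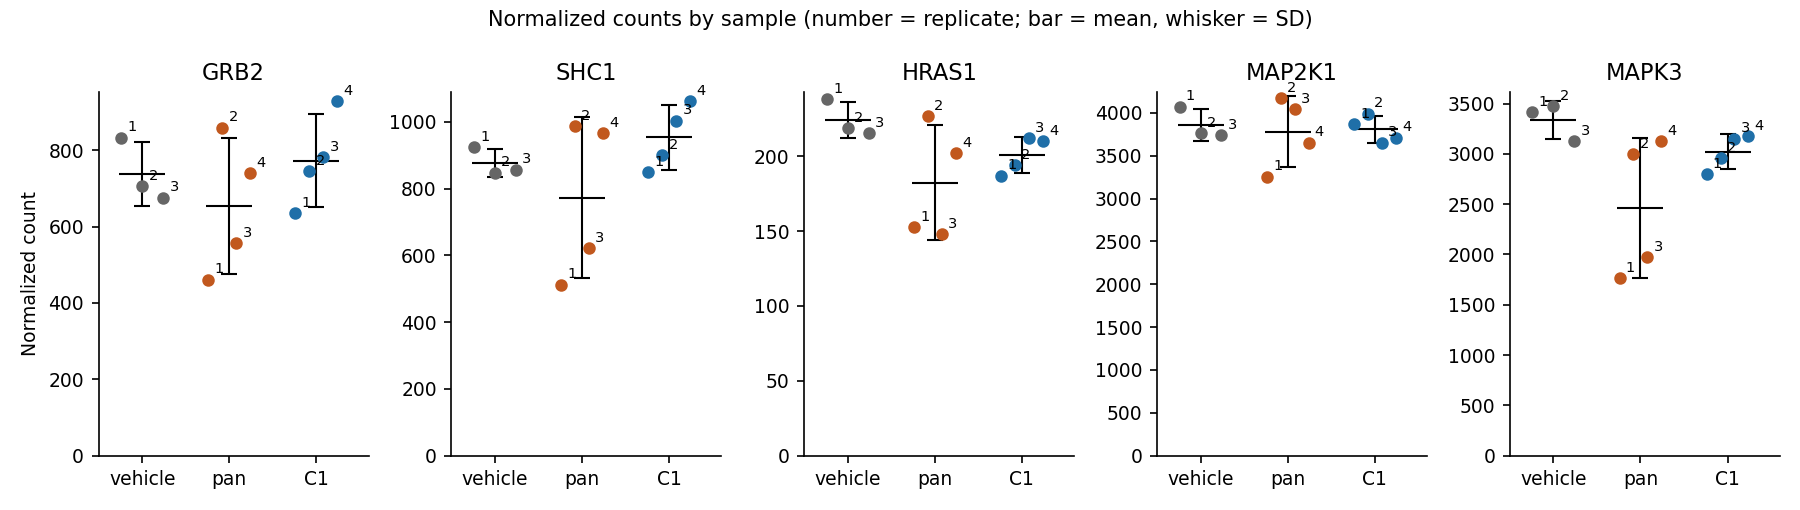
Normalized counts (vertical axes, from 0, with a scale of their own for each gene) of the 5 genes in the vehicle, pan and C1 samples; points are samples with their replicate number, the bar is the group mean and the whisker 1 SD. Pan replicates 1 and 3 are the lowest for GRB2, SHC1, HRAS1 and MAPK3, and MAP2K1 stays between 3256 and 4173 in all 11 samples.

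The first question was whether the pan-Trk agonist changed these transcripts. All 5 genes had a lower mean with pan than with vehicle, although MAP2K1 turned to 0.03 on the log2 scale when samples were centred on the median of well-detected genes. In limma 0 of 5 passed an adjusted p of 0.05 and 0 of 5 had an unadjusted p under 0.05. Over the panel 2.02% of genes passed (5 of 248, 2 higher and 3 lower) and 31 had an unadjusted p under 0.05. MAPK3 had the largest difference, at -0.48 on the log2 scale (standard error 0.28, adjusted p = 0.517 in limma), with a 95% confidence interval from -1.12 to 0.16. HRAS1 had -0.32 (standard error 0.24, adjusted p = 0.594 in limma). The adaptors were nearer to 0, with -0.24 for SHC1 (interval -0.91 to 0.44) and -0.21 for GRB2 (interval -0.85 to 0.43). MAP2K1 had -0.04, with an interval from -0.51 to 0.44.

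The exact permutation test (two-sided, 4 against 3 samples, smallest possible p 0.0571) gave p = 0.114 for MAPK3 and 0.171 for HRAS1, and 0.571 to 0.686 for the others. None of the 5 genes had all its pan samples above, or all below, the vehicle samples, whereas 10.9% of the panel's genes did (27 of 248). The median log2 fold change of the 5 genes was -0.24, beside -0.20 over all 248 genes and -0.07 over the well-detected ones, and 173 genes of the panel (69.8%) were lower with pan. The common direction of the 5 genes was therefore also that of most of the panel. Among the 131 well-detected genes, to which all 5 belong, 60.3% were lower with pan, and the median of the 5 genes was below theirs.

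The second comparison asked the same of the TrkC agonist. With C1, 0 of 5 genes passed an adjusted p of 0.05 in limma, and 0 of 5 had an unadjusted p under 0.05. The share of the panel that passed was 0%, with 26 genes at an unadjusted p under 0.05. HRAS1 differed by -0.16 on the log2 scale (standard error 0.12, adjusted p = 0.720 in limma), a change of -10.5% with an interval from -26.5% to 9.08%. Its groups did not overlap and its exact permutation p was 0.0571, the smallest that 4 against 3 samples allow. Of the 248 genes, 10.1% (25) did not overlap, and the exact p of HRAS1 was 0.545 after adjustment over the panel. MAPK3 had -0.14 (interval -0.43 to 0.14) and MAP2K1 -0.02, with a change between -18.3% and 19.0%. The adaptors were above 0, SHC1 with 0.12 (interval -0.20 to 0.43) and GRB2 with 0.06 (interval -0.34 to 0.46). Their direction depended on the fit: once each sample's log2 total count entered the fit, an alternative chosen after the data were seen, it was -0.19 for both, median centring gave -0.01 for GRB2, and with the second age label it was -0.39 for SHC1 and -0.23 for GRB2. HRAS1 and MAPK3 kept their direction and moved further from 0, to -0.31 and -0.42 with total count and to -0.39 and -0.66 with the age label, with adjusted p-values in limma of 0.634 for both and of 0.823 and 0.807. The median over the 5 genes was -0.02, equal to the -0.02 of all 248 genes, of which 131 (52.8%) were lower with C1. Over the well-detected genes the median was 0.02 and 48.1% were lower.

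Set side by side at the same dose and time, all 5 genes had higher means with C1 than with pan, except that MAP2K1 turned to -0.12 on the log2 scale after median centring, and that SHC1, HRAS1 and MAPK3 turned to -0.03, -0.01 and -0.05 with the second age label in the fit. GRB2 was at 0.05 in that fit. Again 0 of 5 passed in limma or had an unadjusted p under 0.05. The panel's share was 0.403% (1 of 248), with 38 genes at an unadjusted p under 0.05. SHC1 differed by 0.35 (interval -0.22 to 0.93, adjusted p = 0.555 in limma), MAPK3 by 0.34 (interval -0.19 to 0.87) and GRB2 by 0.27 (interval -0.29 to 0.82). HRAS1 differed by 0.16 (interval -0.30 to 0.62) and MAP2K1 by 0.02 (interval -0.37 to 0.40). Exact permutation p-values ranged from 0.257 to 0.886, where 4 against 4 samples allow 0.0286. All 5 genes overlapped between the agonists, whereas 8.06% of the panel (20 genes) did not. The median was 0.27 over the 5 genes and 0.23 over the panel, and 67 of 248 genes (27.0%) were lower with C1 than with pan. Over the 131 well-detected genes, to which all 5 belong, the median was 0.13 and 35.1% were lower. These intervals do not show that the agonists act alike on the 5 genes.

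**Figure D2:**
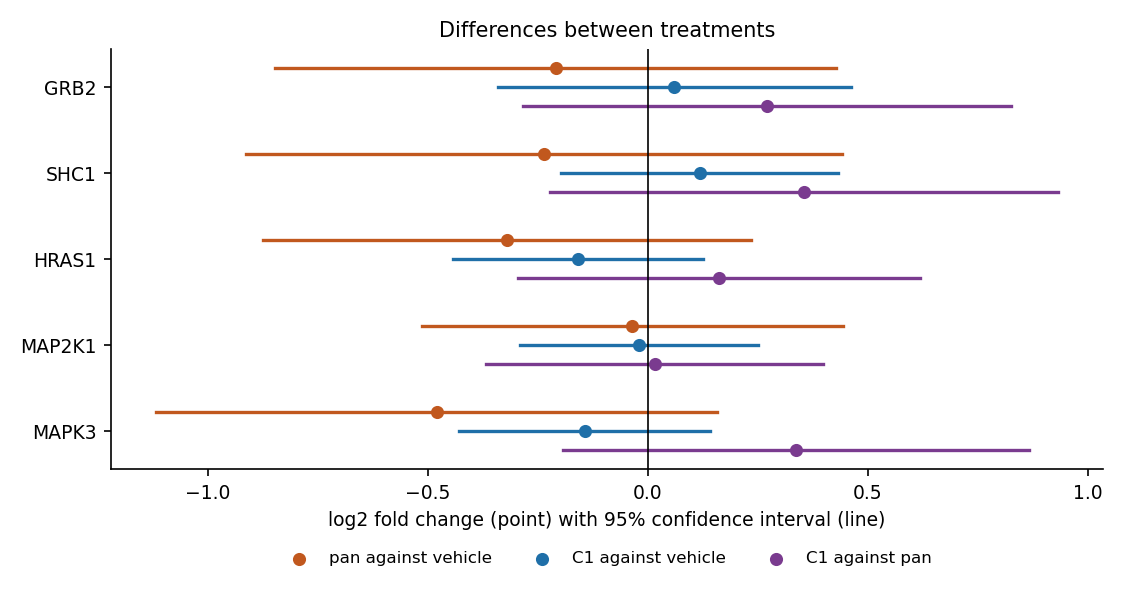
Log2 fold change (horizontal axis) of each gene for pan against vehicle, C1 against vehicle and C1 against pan; points are limma estimates and lines 95% confidence intervals. Every interval crosses 0, and the widest belong to the comparisons that hold the pan samples.

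The lowest pan values of GRB2, SHC1, HRAS1 and MAPK3 lay in the same 2 samples. In pan replicate 1, the log2 values of MAPK3, SHC1, GRB2 and HRAS1 differed from the vehicle mean by -0.92, -0.77, -0.67 and -0.55. In pan replicate 3 the same differences were -0.76, -0.49, -0.40 and -0.60. MAP2K1 did not go with them: it differed by -0.25 in replicate 1 and by 0.07 in replicate 3, close to the median of the well-detected genes (-0.27 and -0.01). In pan replicates 2 and 4 the adaptors were at or above the vehicle mean, with 0.22 and 0.01 for GRB2 and 0.17 and 0.14 for SHC1, while MAPK3 was at -0.15 and -0.09. A mean over the 4 pan samples therefore averages unlike samples.

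**Figure D3:**
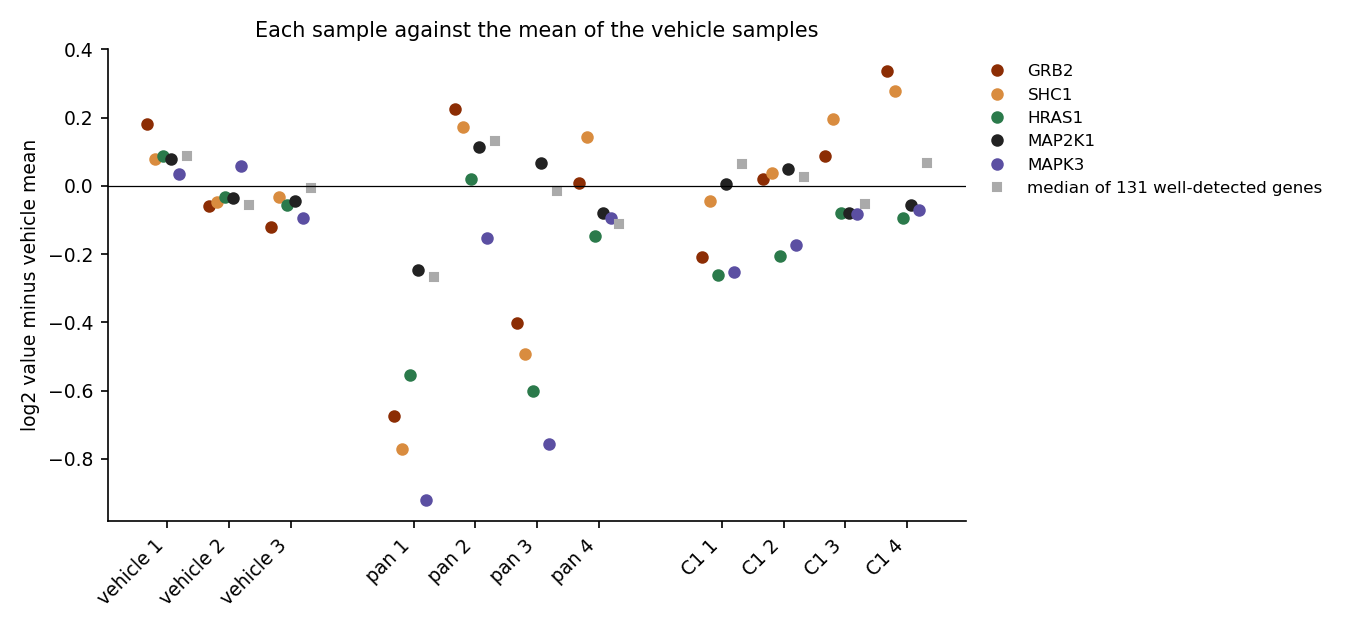
Log2 value minus the mean of the vehicle samples (vertical axis) for each gene in each of the 11 samples; coloured points are genes and grey squares the median of 131 well-detected genes. In pan replicates 1 and 3, MAPK3, SHC1, GRB2 and HRAS1 lie between -0.92 and -0.40, below the grey square, while MAP2K1 lies near it.

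Pan replicates 1 and 3 also had the lowest total counts of all 11 samples (64156 and 81855). In the C1 group GRB2, SHC1 and MAPK3 were ordered exactly as the total counts of the 4 samples (165828, 311731, 407998 and 525997). HRAS1 and MAP2K1 were not, and MAP2K1 had 3871 and 3990 normalized counts in C1 replicates 1 and 2 and 3652 and 3712 in replicates 3 and 4. With vehicle MAPK3 ran against the totals, with 3476, 3415 and 3123 normalized counts at totals of 91955, 117937 and 133098. The other genes followed neither order with vehicle. Pan replicate 4, with the highest total of all, had GRB2 and SHC1 within 0.14 of the vehicle mean on the log2 scale. In the fit of all 3 groups that held total count, MAPK3 differed by -0.53 on the log2 scale with pan (standard error 0.18, adjusted p = 0.148 in limma). That fit was added after the data were seen, and this was the lowest adjusted p of the 275 alternative values. The part of depth in the sample pattern was not tested.

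**Figure D4:**
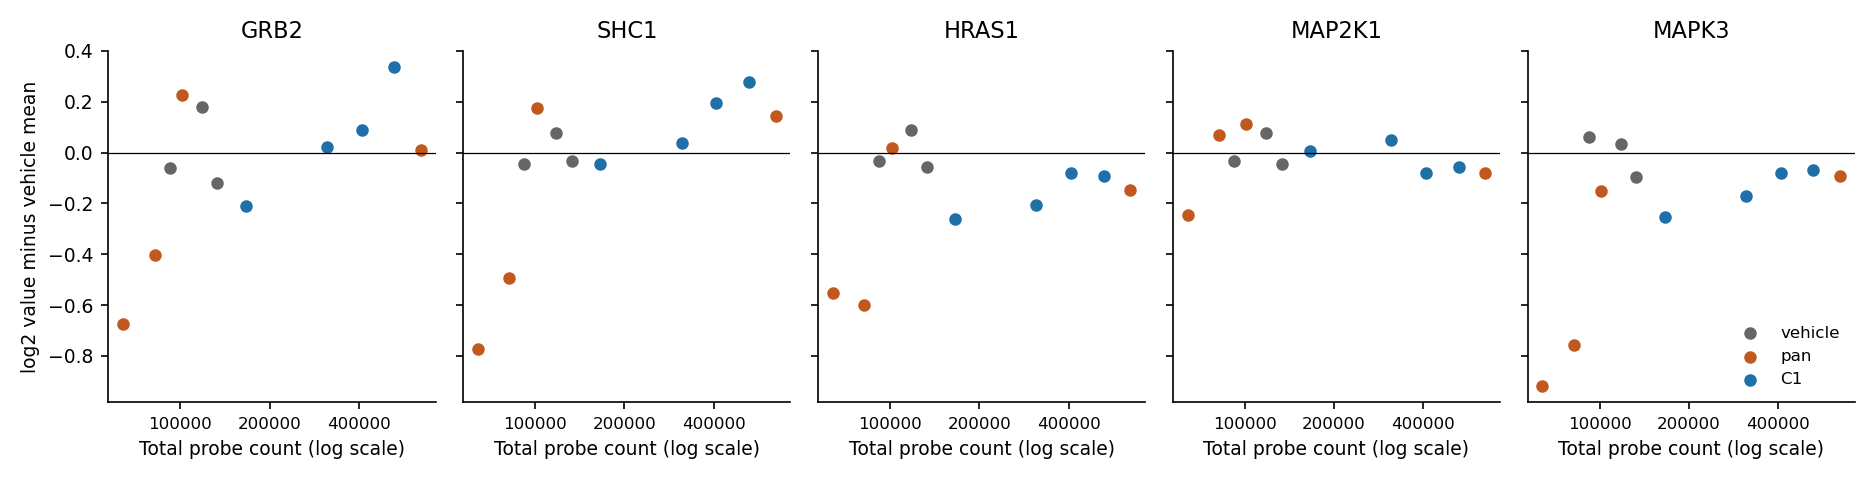
Log2 value minus the vehicle mean (vertical axis) against the total probe count of the sample (horizontal axis, log scale) for each gene; points are samples coloured by group. The 2 samples with the lowest totals are both pan samples and lie at -0.40 or below for GRB2, SHC1, HRAS1 and MAPK3. The C1 points of GRB2, SHC1 and MAPK3 rise with the total. Those of MAP2K1 do not, and the vehicle points of MAPK3 fall with the total.

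The ratio of a pair of genes within a sample does not depend on the scaling of that sample. Over the 11 samples the adaptors GRB2 and SHC1 kept the steadiest ratio, with an SD of 0.10 on the log2 scale, followed by HRAS1 with MAPK3 (0.13) and SHC1 with MAPK3 (0.14). Within no group was GRB2 with SHC1 the steadiest pair. The steadiest was HRAS1 with MAP2K1 in the vehicle group (0.01), SHC1 with MAPK3 in the pan group (0.07) and HRAS1 with MAPK3 in the C1 group (0.02). The 3 loosest pairs over the 11 samples all included MAP2K1, with SDs of 0.29 against MAPK3, 0.29 against SHC1 and 0.26 against GRB2. In the vehicle samples alone, its ratios to HRAS1 and to SHC1 were the steadiest of all (SD 0.01 each). MAP2K1 with MAPK3 was thus the loosest pair over all samples, but it was the loosest within no group. Its SD was 0.08 with vehicle, 0.37 with pan and 0.13 with C1. The median SD against the other well-detected genes was 0.29 for MAP2K1 and 0.38 for MAPK3. Points share the library, its depth and the housekeeping factor, so these SDs are a description.

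In each comparison with vehicle 2 of the 10 pairs did not overlap, and between the agonists 0 of 10. Over all 8515 pairs of well-detected genes the shares without overlap were 9.02% for pan, 19.3% for C1 and 7.9% for C1 against pan, so for C1 the count of 2 in 10 was at the background, and the pairs share genes. The pairs are given as a description, chosen because they did not overlap. The log2 ratio of SHC1 to MAPK3, minus its vehicle mean, was -0.11 to 0.06 in the vehicle samples, 0.15 to 0.33 in the pan samples and 0.21 to 0.35 in the C1 samples. Both comparisons rest on the same 3 vehicle samples. With C1 the other pair was SHC1 to HRAS1, at 0.21 to 0.37 against -0.01 to 0.02 with vehicle. With pan it was HRAS1 to MAP2K1, at -0.67 to -0.07 against -0.01 to 0.01.

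By the same measure, the genes of the panel most like each of the 5 were sought among the 130 other well-detected genes. GRB2 was closest to KEAP1 (SD of the log2 ratio 0.09), the sensor that holds NRF2 in check, and to NFATC3 (0.10), with SHC1 next (0.10). SHC1 was closest to TLR4 (0.09), the lipopolysaccharide receptor, and then to GRB2. HRAS1 was closest to NR3C1 (0.07), the glucocorticoid receptor. TLR4 was the second closest to MAPK3 (0.10). MAP2K1 went with another set, NFKB1 (0.06) and HIF1A (0.07). The median SD against the other genes was 0.33, 0.36, 0.31, 0.38 and 0.29 for GRB2, SHC1, HRAS1, MAPK3 and MAP2K1.

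Genes around the cascade were taken from lists chosen with earlier results of these data known. Of 10 genes that feed into Ras and ERK (growth factors, receptors, kinases and exchange factors), 0 passed in limma in any comparison. Their median log2 fold change was 0.07 with pan, where the panel's was -0.20, and -0.01 with C1. AREG, which encodes the EGF receptor ligand amphiregulin, had 314 ± 54.3 (SD, n = 3), 359 ± 65.8 (SD, n = 4) and 522 ± 63.9 (SD, n = 4) normalized counts with vehicle, pan and C1. With C1 it differed by 0.74 on the log2 scale (standard error 0.17, adjusted p = 0.211 in limma), and all 4 C1 samples were above all vehicle samples. Against pan it was 0.55 (standard error 0.20, adjusted p = 0.272 in limma). PDGFA, a growth factor chain, had the largest difference of this list with pan among well-detected genes, 0.22 (standard error 0.27, adjusted p = 0.787 in limma).

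Of 6 genes downstream of ERK, 0 passed in any comparison, with medians of 0.08 for pan and 0.11 for C1. ELK1, a transcription factor that ERK phosphorylates, differed by -0.49 with pan on the log2 scale (adjusted p = 0.550 in limma) and of 0.56 for C1 against pan (adjusted p = 0.365). MKNK1, a kinase that ERK activates, had -0.30 with C1 (adjusted p = 0.567 in limma). Of 10 genes of the p38 and JNK branches, which run beside ERK, 0 passed, and their medians were -0.15 with pan and 0.02 with C1. The largest differences among well-detected genes there were -0.57 for MAP3K9 with pan (adjusted p = 0.666 in limma), -0.30 for MAP3K1 with C1 (adjusted p = 0.452) and 0.58 for MAP2K6 in C1 against pan (adjusted p = 0.440).

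**Figure D5:**
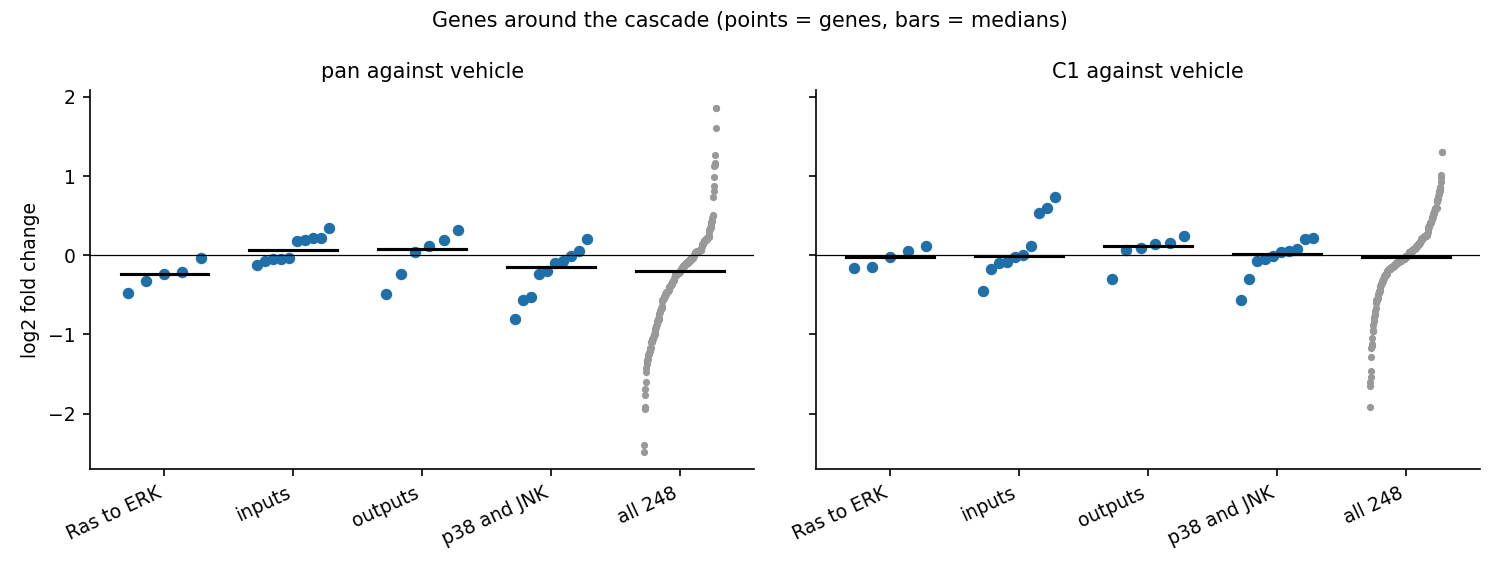
Log2 fold change (vertical axis) with pan and with C1 for the 5 Ras to ERK genes, 10 inputs, 6 outputs, 10 p38 and JNK genes and all 248 genes; points are genes in order of their value and bars medians. With pan the 5 genes have a median of -0.24 beside -0.20 for the panel, and with C1 both are at -0.02. Over the well-detected genes the medians were -0.07 with pan and 0.02 with C1.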

How the data were processed

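RNA of mouse corneas (label: corneal epithelia) was counted by the authors on the NanoString nCounter mouse Inflammation panel. Per the paper, biological replicates that failed quality control were left out and ROSALIND scaled each lane to its housekeeping probes (geometric mean). The deposited values are the log2 of these normalized counts, in 2 tables of 248 genes with identical vehicle values. The tables also hold the authors' mean levels, fold changes and p-values, which were not used. Probe counts were recovered from the steps of the values (100% of low values within 0.01 of a whole multiple).

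Groups came from the sample labels, which do not say that samples are separate animals or cultures. The paper calls the samples biological replicates. The p-values measure the spread between these samples. For each comparison limma 3.58.1 (lmFit and eBayes, R 4.3.3) was run on its own groups, over all 248 genes, with Benjamini-Hochberg adjustment and a threshold of 0.05. Exact permutation p-values were adjusted over all 248 genes and not, as first written, over the 5 genes. The fit was tested on simulated data. Python 3.11.15 with numpy 2.4.6, pandas 2.3.3 and matplotlib 3.10.9 was used for the rest.

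The 5 genes and the gene lists were chosen with earlier results of these data known. Named from each list were genes past the threshold and the well-detected gene with the largest absolute change in each comparison, and for each of the 5 genes the 2 others with the steadiest ratio (SHC1 is given beside GRB2 as the third). Of these, 1 gene and the list it belongs to are not reported here. Alternatives were no moderation, a prior variance that depends on the mean, median centring, scaling to the panel total, a pseudocount of 10, a filter at a mean log2 value of 5, 1 fit of all groups, the replicate number as a block, the second age label as a covariate, voom weights from the recovered counts, leaving out each sample, and calls that also need an absolute log2 fold change of 1.2. The fit with total count as a covariate was added after the data were seen.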

Additional observations from a re-analysis of the deposited data

How the results depend on the processing

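None of the 5 genes passed an adjusted p of 0.05 under any alternative (275 values, lowest adjusted p 0.148 in limma), and 256 of these values kept their direction. MAP2K1 turned to 0.032 for pan against vehicle and to -0.12 for C1 against pan after median centring. For C1 against vehicle, GRB2 turned to -0.012 with median centring, to -0.23 with the second age label and to -0.19 with total count as a covariate, SHC1 turned to -0.39 and -0.19 with the last 2, and MAP2K1 to 0.038 with the age label. That label also turned C1 against pan to -0.027 for SHC1, -0.013 for HRAS1 and -0.050 for MAPK3. In that fit the pan difference from vehicle rests on pan replicates 1 to 3, and the fit tells age from C1 only through pan replicate 4. The cause of these shifts was not tested.

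Leaving out 1 sample at a time gave, for pan against vehicle, -0.36 to -0.056 for GRB2, -0.37 to -0.058 for SHC1, -0.43 to -0.23 for HRAS1, -0.085 to 0.034 for MAP2K1 and -0.61 to -0.33 for MAPK3. For C1 against vehicle the ranges were -0.034 to 0.15, 0.063 to 0.17, -0.19 to -0.11, -0.043 to 0.019 and -0.19 to -0.11 in the same order. For C1 against pan they were 0.12 to 0.41, 0.17 to 0.49, 0.068 to 0.27, -0.054 to 0.065 and 0.19 to 0.47. The direction turned only for GRB2 in C1 against vehicle (without vehicle replicate 3 or C1 replicate 4) and for MAP2K1, in pan against vehicle without vehicle replicate 1 or pan replicate 1, in C1 against vehicle without vehicle replicate 1, and in C1 against pan without pan replicate 1 or C1 replicate 2.

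The panel's count of 5 for pan was 2 without moderation, 3 scaled to the panel total, 1 with the filter on low values, 9 with the age label, 3 with voom weights, 8 with total count, and 1 to 7 without 1 sample (7 without vehicle replicate 1, 3 or fewer without any other). The count of 0 for C1 was 2 with a mean-dependent prior and 4 with that filter. The count of 1 for C1 against pan was 0 with the mean-dependent prior, median centring, panel scaling, the pseudocount, all groups in 1 fit, the age label, voom weights and total count, and 0 to 1 without 1 sample (0 without pan replicate 1 or 3 or any C1 sample).

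The replicate number as a block turned GRB2 to -0.034 for C1 against vehicle and changed no call of the 5 genes. Over 131 genes, 4 of 10 correlations between same-numbered samples were over 0.1 (-0.05 to 0.57), and in those 4 the own number was the best match. The highest were 0.51 and 0.57, for replicates 1 and 4 of pan and C1. Whether same-numbered samples share more than a number was not tested.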
